A study of Mus musculus with 6 samples.

Results

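The genes described here encode 10 enzymes that recycle methionine, make arginine and make polyamines, out of 47728 genes counted in mouse cortex. They are Mtap, Mri1, Apip, Enoph1 and Adi1 of methionine salvage, Ass1 and Asl of arginine synthesis, and Odc1, Srm and Sms of polyamine synthesis. They were taken by gene symbol, all 10 were found, and all 10 passed the filter on low counts. The set was chosen by its members' scaled counts in the same FAD5x and Control libraries, where Adi1 and Ass1 had stood out, so the levels, fold changes and calls of the 10 genes are a description and support nothing further.

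The series compared 3 libraries of FAD5x mice with 3 libraries of C57BL/6 mice, called Control. FAD5x mice model Alzheimer's disease through human transgenes that a Thy1 promoter expresses in neurons. Both groups were sampled from flash frozen cortex and total RNA was sequenced. The sources used here give neither age nor sex nor the breeding of the FAD5x mice. They also do not say whether each library came from its own animal, so the p-values reflect only how far these libraries differ among themselves, and that spread may be technical.

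Polyamines are small cationic metabolites that bind nucleic acids and ion channels. Ornithine decarboxylase (Odc1) makes putrescine, and spermidine synthase (Srm) and spermine synthase (Sms) extend it with aminopropyl groups taken from decarboxylated S-adenosylmethionine, each time releasing methylthioadenosine. The salvage enzymes turn that by-product back into methionine, in the order Mtap, Mri1, Apip, Enoph1 and Adi1, followed by a transamination. Arginine, the source of ornithine, nitric oxide and creatine, is rebuilt from citrulline by argininosuccinate synthase (Ass1) and argininosuccinate lyase (Asl).

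In FAD5x cortex, 2 of the 10 genes were called higher and 0 lower by edgeR's quasi-likelihood test (adjusted p below 0.05 over all 17074 genes tested), and 8 were not called. Of all genes tested 3.15% were called, 1.76% higher and 1.39% lower. At an unadjusted p under 0.05 by edgeR, 3 of the 10 genes were higher, Adi1, Ass1 and Asl, and 0 lower. By limma-voom and by DESeq2, 2 of the 10 were called higher and 0 lower. Among all genes tested DESeq2 called 763 higher and 722 lower, and limma-voom 227 and 211. All genes with an unadjusted p under 0.05 were not counted, so list counts at that cut have no background to be set against. The called genes were Adi1, the dioxygenase of salvage that acts just before the final transamination, and Ass1, the first enzyme of arginine synthesis. The FAD5x and Control libraries did not overlap for 3 of the 10 genes, Adi1, Ass1 and Asl, all of them higher in FAD5x, and of all genes tested 14.1% had groups apart in that direction. Over the 10 genes the log2 fold change had a median of 0.16, against 0.02 for all genes tested. Levels are in CPM, counts relative to library size scaled by the trimmed mean of M values, and are listed in the order of replicates 1, 2 and 3. Fold changes are FAD5x over Control and carry the standard error (SE) of the fit. In bulk cortex RNA, fewer cells of a type and less RNA per cell cannot be told apart.

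**Figure D1:**
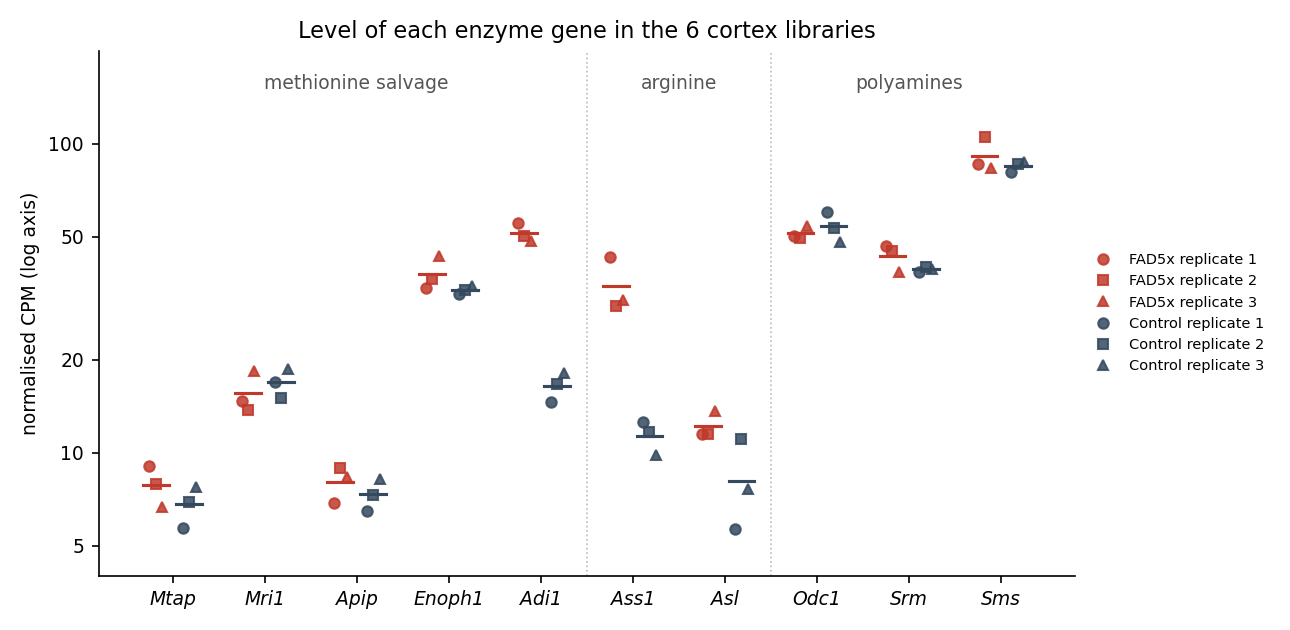
Normalised CPM on a log axis for the 10 enzyme genes, ordered by pathway step, with a point for each of the 3 FAD5x (red) and 3 Control (blue) libraries (the shape gives the replicate) and a bar at the group mean. Adi1 and Ass1 are clearly apart, Asl only narrowly, and the other 7 genes overlap between groups.

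The deposited counts summed to 17972967 to 24137936 per FAD5x library and to 17363946 to 18188112 per Control library. The names of the first and second FAD5x libraries are alike. Their counts were not those of a single library deposited again (chi-square over degrees of freedom 63.5, against 19.8 to 59.8 for the other pairs within a group, a value that grows with depth), and whether they share an animal is not stated. Cortical neuron markers such as Tbr1 and Cux2 were present in every library. FAD5x replicate 1 also held 1042 CPM in the sum of 6 striatal neuron markers, against 98.6 and 185 in the other FAD5x libraries and 99.1 to 159 in Control. Control replicate 1 had 3124 counts in 4 Y-linked genes and 3 counts of Xist, and none of the other 5 libraries exceeded 9 Y-linked counts or fell under 10346 of Xist. By these counts Control replicate 1 was male and the other 5 libraries female, so sex was not balanced between the groups. Without FAD5x replicate 1 the log2 fold change was 1.58 for Adi1 and 1.43 for Ass1, and without Control replicate 1 it was 1.56 for Adi1 and 1.69 for Ass1, with both genes called each time. With both of these libraries left out, which leaves 2 per group, Adi1 was called and Ass1 was not (edgeR, adjusted p = 0.0732).

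Among the salvage genes the 4 earlier steps had FAD5x and Control libraries that overlapped. Mtap, the phosphorylase that cleaves methylthioadenosine, had 9.03, 7.95 and 6.69 CPM in the FAD5x libraries and 5.73, 6.91 and 7.77 CPM in the Control libraries. Mri1, the isomerase of methylthioribose phosphate, had 14.7, 13.8 and 18.4 CPM in the FAD5x libraries and 16.9, 15.1 and 18.7 CPM in the Control libraries. Neither gene had a library far from the rest, and the log2 fold changes were 0.21 ± 0.21 for Mtap and -0.11 ± 0.17 for Mri1. Apip, the dehydratase of the next step, had 6.88, 8.92 and 8.36 CPM in the FAD5x libraries and 6.50, 7.30 and 8.22 CPM in the Control libraries (log2 fold change 0.13 ± 0.20). Enoph1, which carries an enolase and a phosphatase activity in a single protein, had 34.2, 36.4 and 43.4 CPM in the FAD5x libraries and 32.7, 33.7 and 34.6 CPM in the Control libraries (log2 fold change 0.18 ± 0.13). In Enoph1 the overlap rested on FAD5x replicate 1, since FAD5x replicates 2 and 3 lay above every Control library.

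Adi1 (ENSMUSG00000020629), the acireductone dioxygenase that yields the keto acid of methionine, was the salvage gene whose groups were apart. It had 55.4, 50.2 and 48.4 CPM in the FAD5x libraries, against 14.6, 16.7 and 18.1 CPM in the Control libraries. The lowest FAD5x library was thus well above the highest Control library, and the coefficient of variation was 7.08% within FAD5x and 10.4% within Control. The fold change was 3.12, or 1.64 ± 0.13 on the log2 scale (n = 3 libraries per group). Adi1 made up 46.1%, 42.8% and 38.6% of the summed CPM of the 5 salvage genes in the FAD5x libraries and 19.2%, 21.02% and 20.7% in Control. The other 4 genes summed to 64.8, 67.1 and 76.9 CPM in the FAD5x libraries and 61.8, 62.9 and 69.3 CPM in the Control libraries, and these sums overlapped. The CPM ratio of Adi1 to Enoph1, the step before it, averaged 1.37 ± 0.25 in FAD5x and 0.489 ± 0.038 in Control (SD, n = 3 each).

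No annotated transcript resembled Adi1 closely. The best matches, Skint8 and Obox1, shared 31.5% and 9.7% of the length of the Adi1 transcript at identities of 90.2% and 90.7%, and both had 0 counts in every library. Of the 5 tested genes on each side on chromosome 12, 0 of 10 were called, and their log2 fold changes ran from -0.92 to 0.53, the upper end being Rps7, a ribosomal protein gene (adjusted p = 0.0862). Rps7 was named with its value in view.

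Ass1 (ENSMUSG00000076441), which joins citrulline and aspartate and is often described as the limiting step of arginine recycling, was the other gene called higher. It had 43.2, 29.9 and 31.2 CPM in the FAD5x libraries, against 12.6, 11.7 and 9.84 CPM in the Control libraries. FAD5x replicate 1 was the highest, and all 3 FAD5x libraries were over every Control library. The fold change was 3.06, or 1.61 ± 0.18 on the log2 scale. The level averaged 34.8 ± 7.3 CPM in FAD5x and 11.4 ± 1.4 CPM in Control (SD, n = 3 each). Asl, which splits argininosuccinate into arginine and fumarate, had 11.5, 11.5 and 13.6 CPM in the FAD5x libraries and 5.67, 11.1 and 7.60 CPM in the Control libraries. Its groups were separated only by the gap between FAD5x replicate 1 and Control replicate 2, its log2 fold change was 0.59 ± 0.25, and it was not called. The CPM ratio of Ass1 to Asl was 3.77, 2.60 and 2.29 in FAD5x and 2.21, 1.06 and 1.29 in Control, with the lowest FAD5x library near the highest Control library.

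Mouse Ass1 has a processed copy, Gm5424 on chromosome 10, whose transcript is 99.5% identical over 1240 bases. Reads could in principle be split between them. The copy held 2, 7 and 0 counts in FAD5x and 1, 1 and 1 in Control, at most 1.13% of the Ass1 count of any library. How reads matching both were treated is not given, so these low counts do not settle whether Ass1 lost reads, and its count is uncertain. Of the 10 tested genes around Ass1 on chromosome 2, 0 were called, with log2 fold changes from -1.10 to 0.66. The Ass1 promoter is shown beside that of Enoph1 because both carry the same 6-base E-box although only Ass1 was called. The sequences run from 250 bases before to 50 bases after the start site and come from RefSeq on build GRCm38.p6, Ass1 at chr2:31470020-31470319 and Enoph1 at chr5:100039744-100040043, both on the + strand. Capitals mark CACGTG.
Ass1: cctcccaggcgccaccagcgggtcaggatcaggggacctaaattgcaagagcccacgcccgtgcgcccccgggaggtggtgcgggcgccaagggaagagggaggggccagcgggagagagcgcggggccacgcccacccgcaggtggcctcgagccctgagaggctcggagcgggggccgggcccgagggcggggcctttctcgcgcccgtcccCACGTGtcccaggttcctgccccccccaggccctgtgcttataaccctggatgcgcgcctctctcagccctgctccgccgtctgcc
Enoph1: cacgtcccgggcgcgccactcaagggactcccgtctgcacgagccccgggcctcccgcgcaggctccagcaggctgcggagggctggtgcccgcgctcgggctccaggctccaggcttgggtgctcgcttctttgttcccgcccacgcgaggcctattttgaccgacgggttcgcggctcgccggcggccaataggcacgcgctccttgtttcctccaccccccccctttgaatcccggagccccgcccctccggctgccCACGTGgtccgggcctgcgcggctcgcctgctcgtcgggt
The motif, which reads the same on both strands, begins at position -36 relative to the start site in Ass1 and at position 11 in Enoph1. Among the 7 of the 10 genes with a RefSeq promoter entry here, Apip, Mtap, Mri1 and Odc1 have no CACGTG in the window, and Sms has it in 1 of its 2 listed promoters. It is present in 7.2% of all 32851 promoters listed for the mouse. Adi1, Asl and Srm have no entry.

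Cell type markers were read in the same libraries. Over library totals, markers of oligodendrocytes summed to 7648, 3556 and 5431 CPM in the FAD5x libraries and to 2938, 3184 and 4104 CPM in Control, and 1 of 8, Mobp, was called higher by edgeR, 0 by limma-voom and 3 by DESeq2, with 3 higher at an unadjusted p under 0.05 and all 8 log2 fold changes above 0. Microglial markers summed to 840.0, 334 and 580 CPM in the FAD5x libraries and to 260, 372 and 254 CPM in Control, with 1 of 8, C1qa, called higher by edgeR, 1 by limma-voom and 3 by DESeq2. Of these 8, 6 were higher at an unadjusted p under 0.05, and all 8 log2 fold changes were above 0. Markers of mural cells and meningeal fibroblasts summed to 102 to 152 CPM in FAD5x and 231 to 462 CPM in Control, with 1 of 8, Col3a1, called lower by edgeR, 1 by limma-voom and 6 by DESeq2, and 6 lower at an unadjusted p under 0.05. Endothelial markers summed to 216 to 241 CPM in FAD5x and 241 to 319 CPM in Control, with 1 of 7, Itm2a, called lower by edgeR, 0 by limma-voom and 1 by DESeq2, and 3 lower at an unadjusted p under 0.05. Of 7 astrocyte, 8 neuron, 6 cortical neuron, 6 striatal neuron, 5 blood and 4 tested choroid plexus markers 0 were called by edgeR, limma-voom or DESeq2. At an unadjusted p under 0.05 there was 1 each among astrocyte, neuron and striatal neuron markers. The astrocyte marker was Gfap, with 1508, 129 and 914 CPM in the FAD5x libraries and 193, 169 and 119 CPM in Control. Its log2 fold change was 2.41 ± 0.81 (edgeR, adjusted p = 0.168), and 2 of the 7 astrocyte markers were above 0. The microglial marker Trem2 had 74.3, 13.7 and 56.3 CPM in the FAD5x libraries and 6.39, 15.3 and 7.55 CPM in Control. For both, FAD5x replicate 2 lay within the Control range, and both were named with their values in view. No marker of any list was at 0 in every library. In FAD5x replicate 2 the microglial and oligodendrocyte sums lay within the Control range, while 3 of their markers did not: Mobp had 726 CPM, Mbp 1933 CPM and C1qa 73.3 CPM there, against at most 507, 1415 and 26.7 CPM in any Control library. These 3 markers were picked with their values in view. The part of these marker differences in the Adi1 and Ass1 levels was not tested.

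**Figure D2:**
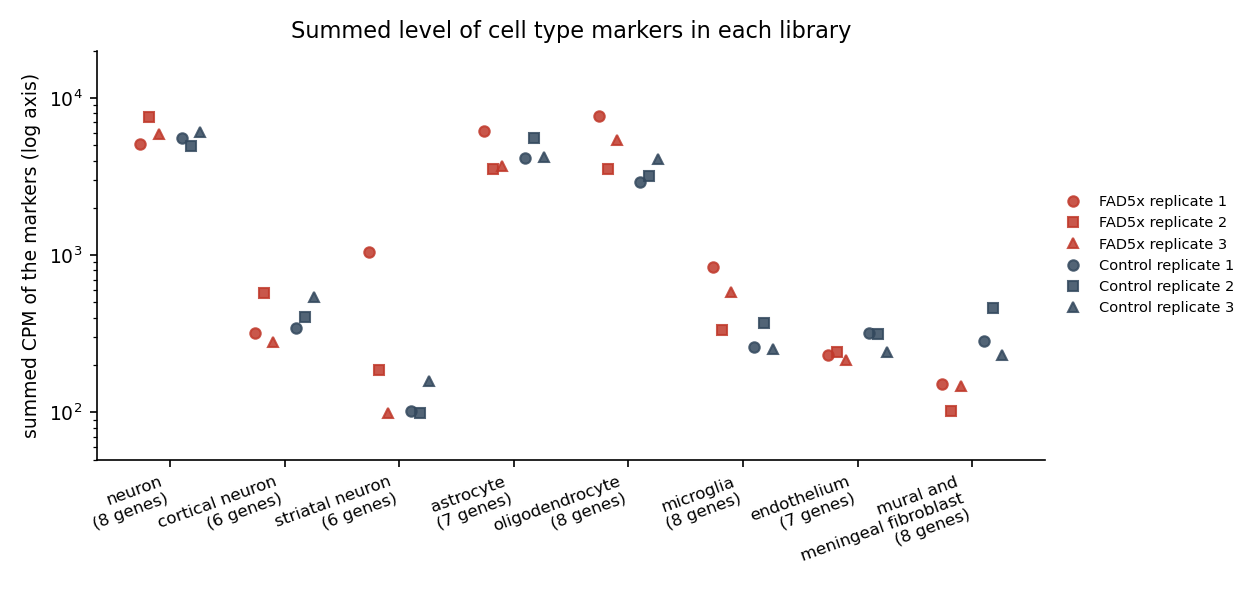
Summed CPM over library totals, on a log axis, of marker genes for 8 cell types in each FAD5x (red) and Control (blue) library. The striatal sum of FAD5x replicate 1 is 1042 CPM against at most 185 in any other library, and the mural and meningeal sums are lower in all 3 FAD5x libraries.

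The 3 polyamine genes were among the more abundant of the 10 and had overlapping groups. Odc1, the regulated entry enzyme with a short-lived protein, had 50.2, 49.5 and 54.0 CPM in the FAD5x libraries and 60.2, 53.5 and 48.2 CPM in the Control libraries. Srm, spermidine synthase, had 46.7, 44.8 and 38.3 CPM in the FAD5x libraries and 38.4, 39.8 and 39.5 CPM in the Control libraries. Sms, the X-linked spermine synthase, had 85.9, 105 and 83.2 CPM in the FAD5x libraries and 81.0, 86.0 and 87.2 CPM in the Control libraries. The log2 fold changes were -0.07 ± 0.12 for Odc1, 0.14 ± 0.12 for Srm and 0.11 ± 0.13 for Sms, and none was called. The lowest Sms level was that of Control replicate 1, the library with Y-linked counts, at 81.0 CPM, near the 83.2 CPM of FAD5x replicate 3. A link between Sms and sex was not tested. The CPM ratio of Sms to Srm averaged 2.12 ± 0.26 in FAD5x and 2.16 ± 0.05 in Control (SD, n = 3 each).

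Odc1 has many processed copies in the mouse genome, of which only Gm7993 and Gm17709 passed the filter on low counts. Gm7993 was called by edgeR, while Gm17709 and Odc1 were not. Gm7993, a processed pseudogene on chromosome 5, had 104, 84 and 71 counts in the FAD5x libraries and 3, 2 and 2 counts in Control. The summed counts relative to the library totals in FAD5x were 30.6 times those in Control (95% exact conditional binomial interval 14.7 to 77.0, which covers counting error only), and the edgeR adjusted p was 0.000803. To show how little separates the transcripts, the 120 ungapped bases of the longest Odc1 reading frame with the most differences from Gm7993 are given. They are bases 877 to 996 from the start codon, from the GENCODE M21 transcripts of build GRCm38. Capitals mark the 10 positions that differ.
Odc1: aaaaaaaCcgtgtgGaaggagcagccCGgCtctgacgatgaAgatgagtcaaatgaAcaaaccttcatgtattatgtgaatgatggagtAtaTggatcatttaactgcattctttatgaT
Gm7993: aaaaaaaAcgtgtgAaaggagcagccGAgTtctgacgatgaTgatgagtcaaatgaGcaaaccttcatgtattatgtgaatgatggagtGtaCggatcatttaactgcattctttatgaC
Over the reading frame 1335 of 1366 aligned bases were identical, or 97.7%, with gaps left out. By blastn, the measure used for AW146154 and Gm17709 below, Gm7993 was 95.7% identical to the Odc1 transcript over 1388 bases. AW146154, a protein-coding gene that shares 921 bases with Odc1 at 92.1% identity, had 145, 78 and 93 counts in FAD5x and 42, 49 and 52 in Control, with a log2 fold change of 0.87 ± 0.27 that edgeR did not call (adjusted p = 0.124). Gm17709, with 97.8% identity over 937 bases, had 32 to 53 counts in FAD5x and 27 to 34 in Control. The 12 look-alikes with a line in the table summed to 19.7% to 23.5% of the Odc1 count in FAD5x and to 8.59% to 9.98% in Control. No source used here says how reads matching several of these genes were treated, so the Odc1 count is uncertain, and the choice of Gm7993 and AW146154 among the look-alikes was made with their values in view. Sms has 6 such look-alikes in the table, which summed to at most 1.25% of its count.

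**Figure D3:**
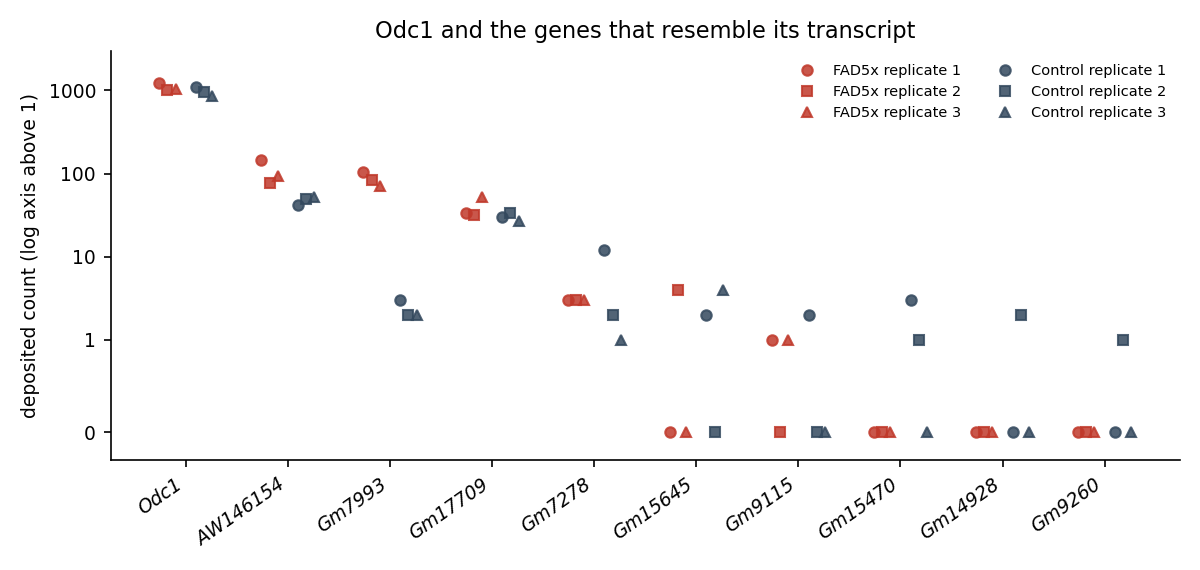
Deposited counts of Odc1 and of the 9 genes that resemble its transcript and had any count, on an axis that is logarithmic above 1, with FAD5x in red and Control in blue. Odc1 overlaps between groups, whereas Gm7993 has 71 to 104 counts in FAD5x and 2 or 3 in Control.

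Levels were ordered within each group per kilobase of annotated exon, which depends on the exon model. In FAD5x, Adi1 came first at 27.2 ± 1.9 CPM per kb, with Srm at 27.1 ± 2.7 and overlapping libraries. Sms, Enoph1, Odc1 and Ass1 followed between 14.4 and 15.2, each overlapping the next, and then Apip at 8.05, Mri1 at 4.78, and Asl and Mtap at 2.52 and 2.44, which overlapped. In Control, Srm came first at 24.5 ± 0.5 CPM per kb and was apart from Odc1 at 15.9 ± 1.8, which overlapped Sms at 14.1, as Sms did Enoph1 at 13.4. Adi1 was at 8.74 ± 0.91, overlapping Apip at 7.34, and Ass1 was at 4.71 ± 0.57, overlapping Mri1 at 5.16. Mtap at 2.11 and Asl at 1.68 came last and overlapped. Adi1 was thus first of the 10 in FAD5x and the fifth in Control, and Ass1 the sixth in FAD5x and the eighth in Control.

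**Figure D4:**
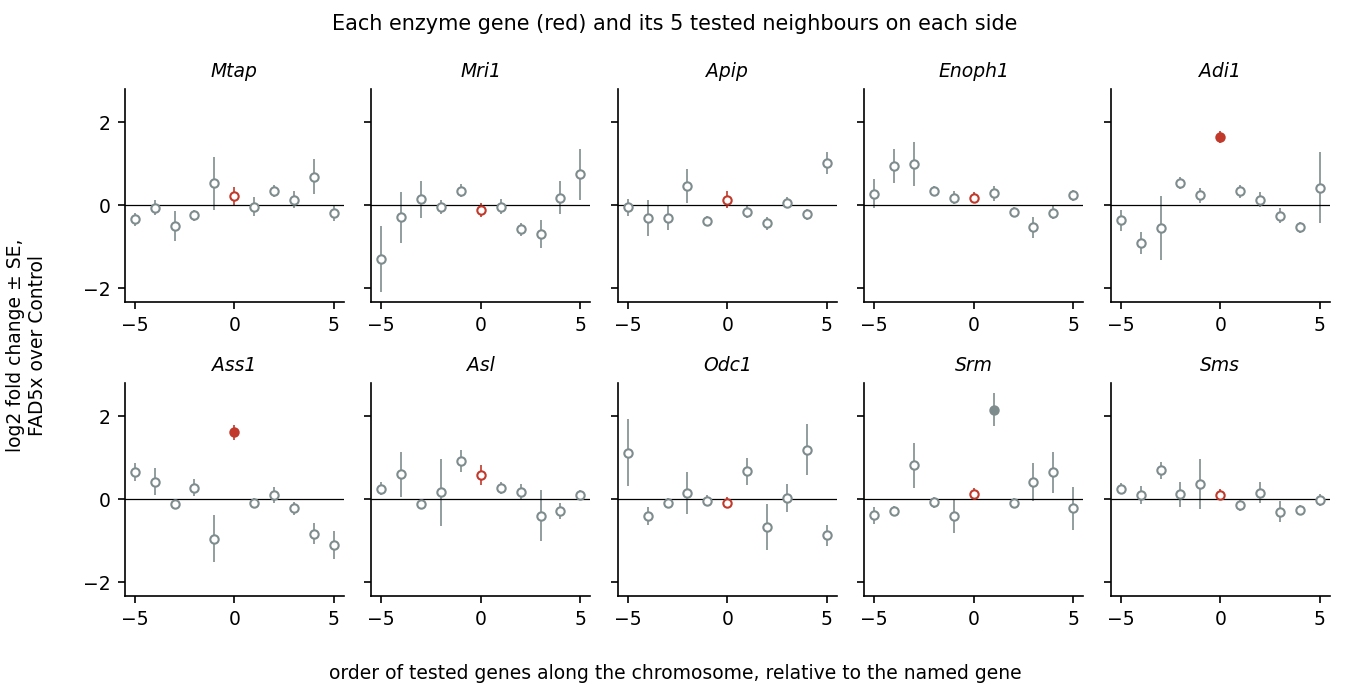
Log2 fold change with SE, FAD5x over Control, of each of the 10 enzyme genes (red) and of the 5 tested genes on each side of it, in annotation order, with filled points for called genes. Adi1 and Ass1 are called and the 10 genes around each are not, and next to Srm only Masp2 is called.

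Around the 10 enzyme genes, 1 neighbour was called, Masp2, a serine protease of the complement lectin pathway that lies next to Srm (log2 fold change 2.16 ± 0.40, adjusted p = 0.0292), named with its value in view. Each of the 10 enzyme genes had 10 tested neighbours. DESeq2 called 6 of all these neighbours higher and 6 lower, against 763 and 722 among all 17074 genes tested. At an unadjusted p under 0.05 the neighbours had 8 higher and 8 lower, without a count over all genes to set beside them. Levels were also compared with those of Adi1 and Ass1 across the 6 libraries, leaving out genes without a symbol and those with predicted or similar names. Among the rest, the levels most like those of Adi1 belonged to Nkx6-2, an oligodendrocyte transcription factor (Pearson r = 0.999 on log2 CPM), Tmem106c (r = 0.999) and Stx16, a syntaxin of Golgi traffic (r = 0.998). For Ass1 they were Plekhb1 (r = 0.993), Fbxl21 (r = 0.991) and Mafk, a small Maf transcription factor (r = 0.991). These r values describe 6 libraries that fall into separate groups, were the highest among the genes kept for this ranking, and carry no test. Of the 6 genes, Nkx6-2, Tmem106c and Plekhb1 were called higher (adjusted p = 0.00143, 0.0198 and 0.00533).

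Other genes of the same pathways were taken from 3 lists of 56 genes, of which 47 passed the filter, and 1 of the 47 was called higher and 0 lower. At an unadjusted p under 0.05 there were 10 higher and 2 lower, without a count over all genes to set beside them. DESeq2 called 3 higher and 2 lower (763 and 722 among all 17074 genes tested), and limma-voom called 1 higher and 0 lower (227 and 211). The median log2 fold change of the 47 genes was 0.07, against 0.02 over all genes tested.

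Gatm (glycine amidinotransferase), which uses arginine to begin creatine synthesis, was the called gene. It had 143, 91.6 and 106 CPM in the FAD5x libraries, against 49.4, 48.0 and 51.0 CPM in the Control libraries. The groups were well apart and FAD5x replicate 1 was the highest, as it was for Ass1. The fold change was 2.29, or 1.20 ± 0.17 on the log2 scale (edgeR, adjusted p = 0.0126). The call ended when any one Control library was left out (adjusted p = 0.0681, 0.0862 and 0.0505 without Control replicates 1, 2 and 3) and in the fit with the replicate number as a block (0.0672). The log2 fold changes in these fits were 1.20, 1.17 and 1.22, and 1.17 with the block. Of all genes tested, 42, 39 and 72 were called higher there, and 36 with the block, against 300 with all libraries and no block. The marker sums of oligodendrocytes, microglia, astrocytes, striatal neurons and choroid plexus were likewise the highest in FAD5x replicate 1. The part of any of these in the Gatm level was not tested. Gamt, which completes creatine synthesis, had a log2 fold change of -0.03 ± 0.22.

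Of 16 tested genes around arginine, nitric oxide and creatine, edgeR called Gatm and not the other 15, and 5 more did not pass the filter. By DESeq2, Gatm and Arg2 were called higher and Nos2 lower. At an unadjusted p under 0.05 edgeR had 2 higher and 1 lower, without a count over all genes to set beside them. Among the most abundant that were not called, Ddah1, which degrades methylated arginines, had 151, 88.7 and 111 CPM in the FAD5x libraries and 93.9, 132 and 106 CPM in the Control libraries. Nos1, the neuronal nitric oxide synthase, had 69.8, 36.0 and 69.3 CPM in the FAD5x libraries and 72.8, 64.7 and 53.1 CPM in the Control libraries, and Oat, ornithine aminotransferase, averaged 72.2 ± 7.0 CPM in FAD5x and 62.1 ± 4.1 CPM in Control (SD, n = 3 each). The direction for Ddah1 turned without FAD5x replicate 1 or Control replicate 1 and that for Nos1 without FAD5x replicate 2. Arg2, the mitochondrial arginase, had 11.3, 7.75 and 6.53 CPM in the FAD5x libraries and 4.51, 3.48 and 2.74 CPM in the Control libraries, groups that did not overlap, with a log2 fold change of 1.25 ± 0.29 (adjusted p = 0.0575 by edgeR and 0.00332 by DESeq2). Part of the Arg2 transcript overlaps Vti1b, with 285 bases identical, so its count is uncertain. Nos2, the inducible nitric oxide synthase, was low in every library, with 0.165, 0.145 and 0.418 CPM in the FAD5x libraries and 1.10, 1.57 and 0.894 CPM in the Control libraries (adjusted p = 0.0651 by edgeR and 0.0199 by DESeq2). Arg2, Nos2 and Gamt were named after their values were seen. The urea cycle genes Cps1, Otc and Arg1, which mark the liver, had 0 to 10 counts in any FAD5x library and 0 to 21 in any Control library and were not tested, and these 3 were named with their counts in view.

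Of 19 tested genes that regulate, degrade, move or use polyamines, 0 were called by edgeR or by limma-voom. DESeq2 called 1 higher, Amd2, and 1 lower, Azin1, against 763 and 722 among all 17074 genes tested. At an unadjusted p under 0.05, 8 were higher and 1 lower, without a count over all genes to set beside them. The median log2 fold change of the 19 genes was 0.30, with 14 of 19 above 0, against 8801 of all 17074 genes tested. The FAD5x and Control libraries did not overlap for 11 of the 19, 9 of them higher and 2 lower in FAD5x, where 14.1% and 13.2% of all genes tested were apart in those directions. Antizyme 1 (Oaz1), which binds ornithine decarboxylase and sends it to the proteasome, had 251.4, 286 and 253 CPM in the FAD5x libraries and 186, 236 and 184 CPM in the Control libraries (log2 fold change 0.38 ± 0.15, adjusted p = 0.191). Azin1, a decoy that binds antizyme, had 119, 135 and 116 CPM in the FAD5x libraries and 188, 169 and 181 CPM in the Control libraries, which did not overlap (log2 fold change -0.54 ± 0.13, adjusted p = 0.0580). Azin1, Amd1 and Amd2 were named after their values were seen. The CPM ratio of Azin1 to Odc1 was 2.41 ± 0.30 in FAD5x and 3.35 ± 0.35 in Control (SD, n = 3 each). Eif5a, the translation factor that carries the spermidine-derived residue hypusine, had 199, 247 and 232 CPM in the FAD5x libraries and 176, 194 and 179 CPM in the Control libraries (log2 fold change 0.31 ± 0.14, adjusted p = 0.242). Atp13a2, a lysosomal polyamine exporter, averaged 166 ± 11 CPM in FAD5x and 190.3 ± 23.9 CPM in Control (SD, n = 3 each) with overlapping groups. Amd1 and Amd2, which supply decarboxylated S-adenosylmethionine, are 99.6% identical over 3202 bases and cannot be told apart well by counting, and their log2 fold changes were 0.34 ± 0.13 and 0.53 ± 0.13 by edgeR, which called neither, while DESeq2 called Amd2 (adjusted p = 0.0301).

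Of 12 tested genes of the methionine cycle and transsulfuration, 0 were called by edgeR, limma-voom or DESeq2 and 0 had an unadjusted p under 0.05, and the median log2 fold change was -0.03. Mat2a, which makes S-adenosylmethionine outside the liver, had 164, 132 and 180 CPM in the FAD5x libraries and 212, 184 and 176 CPM in the Control libraries. Ahcyl1, a relative of adenosylhomocysteinase, averaged 362 ± 58 CPM in FAD5x and 393 ± 13 CPM in Control, and Got1, an aminotransferase, 260.0 ± 41.1 CPM in FAD5x and 230.5 ± 22.4 CPM in Control (SD, n = 3 each). All 3 had overlapping groups, and their adjusted p from edgeR was 0.374 for Mat2a, 0.710 for Ahcyl1 and 0.577 for Got1.

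**Figure D5:**
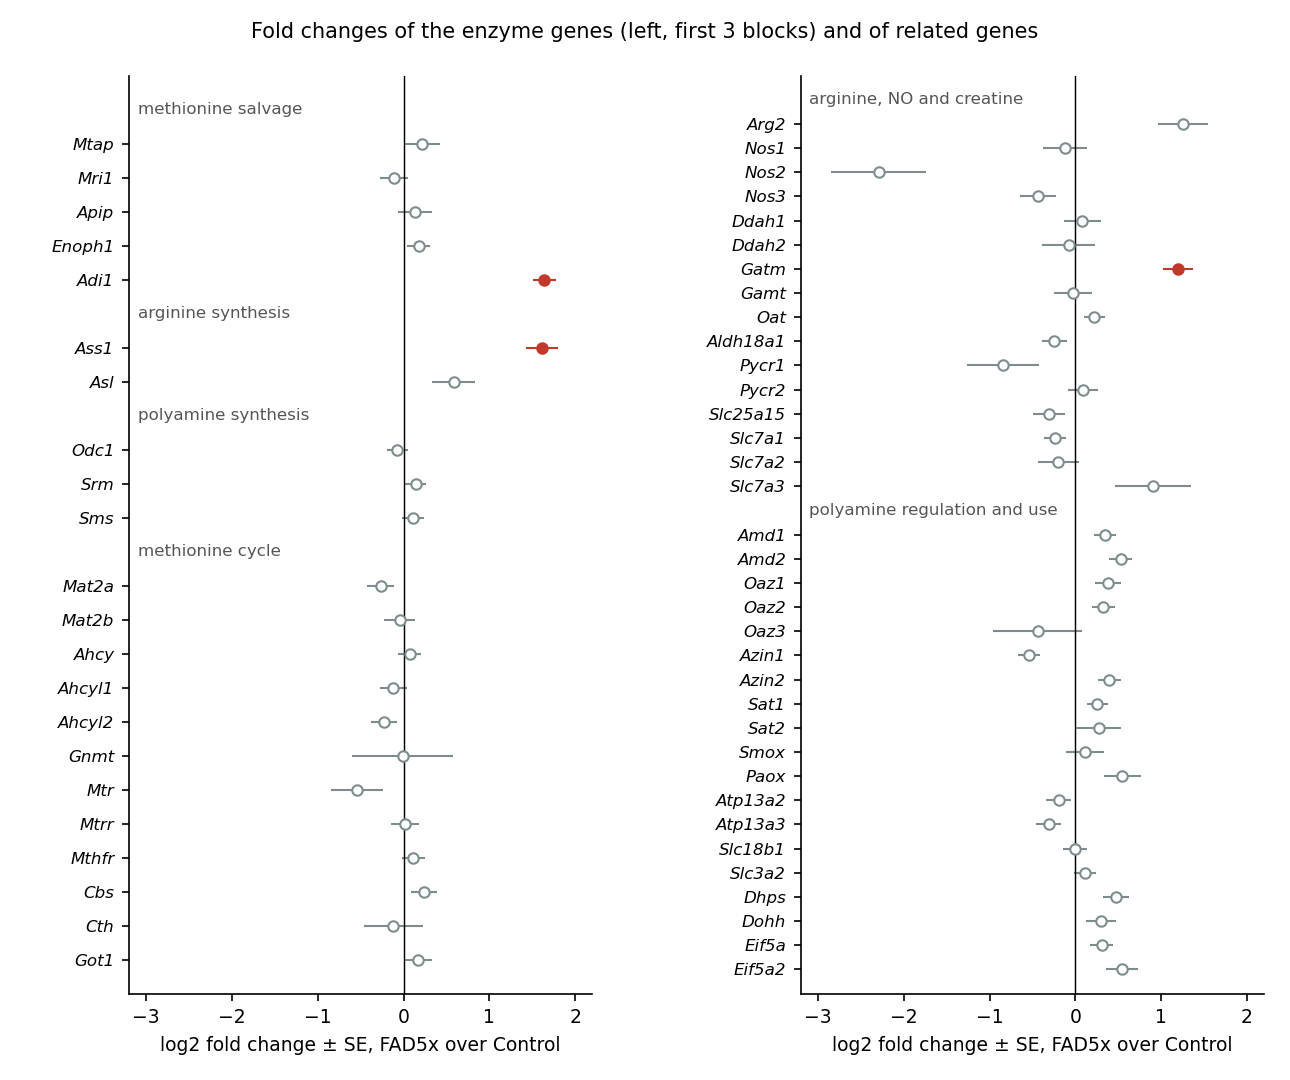
Log2 fold change with SE, FAD5x over Control, of the 10 enzyme genes (first 3 blocks on the left) and the 47 tested related genes, with filled red points for genes called by edgeR and open grey points for the rest. Adi1, Ass1 and Gatm, at 1.64, 1.61 and 1.20, are the filled points.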

How the data were processed

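RNA of 6 cortex samples was measured by sequencing, 1 library each. The authors deposited raw counts per gene, unfiltered and not normalised as far as the values show. STAR 2.7.11b, cutadapt, featureCounts, limma and edgeR 3.38.4 are named, with build GRCm39, per the submitters' processing notes. Order, parameters, strandedness and the handling of reads with several matches are not given in the sources used here. Of 47729 lines 1 was dropped for a cell that is no number. Symbols were found for 47223 of the other identifiers. Gene order, lengths and transcripts came from GENCODE M21 on build GRCm38, so coordinates are given only with promoters.

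Each column was tied to its sample through the library name in that sample's label. Genes were fitted with edgeR 4.0.16 (R 4.3.3): filterByExpr, trimmed mean of M values, robust quasi-likelihood F-test, two-sided, genotype only, Benjamini-Hochberg over all 17074 genes tested. The biological coefficient of variation was 23.3%. The SE is the log2 fold change over the root of F. The steps were tested on simulated counts. Look-alike transcripts were sought with blastn 2.17.0 (at least 90% identity over 150 bases). The members and lists were chosen with earlier results of these data known. The named genes were all 10 enzymes, every called related gene, and the 3 most abundant uncalled genes of each related list. Also named were called genes among the 5 tested neighbours on each side of Adi1 and Ass1, and look-alikes. The 3 genes most like Adi1 and Ass1 were named too, among those with a symbol that is not a predicted or similar name. Genes named outside this rule are said to be so where they appear. Alternatives were limma-voom (limma 3.58.1), DESeq2 1.42.0, scalings, filters, thresholds, a replicate block, FAD5x replicates 1 and 2 summed, each library left out, and, added after the data were seen, a pair of libraries left out.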

Additional observations from a re-analysis of the deposited data

How the results depend on the processing

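Adi1 was called in all 16 alternative fits (log2 fold change 1.51 to 1.71) and Ass1 in 15 of 16 (1.43 to 1.72). The number of the 10 enzyme genes called higher was 2 and that called lower 0 in every alternative listed at the outset, leaving out each library in turn included. An alternative added with the data in view dropped replicate 1 of both groups, which leaves 2 libraries per group. There it was 1, since Ass1 lost its call (adjusted p = 0.0732). That pair left 15 genes higher and 19 lower among all genes, against 300 and 237 with all libraries. Gatm was called in 11 of 16 fits (0.996 to 1.34), so the related genes had 0 called with that pair left out and with the replicate block. Odc1 kept its direction in 14 of 16 fits (-0.15 to 0.03).

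The counts of all genes called higher and lower were 763 and 722 by DESeq2, 574 and 489 with no filter on low counts, 36 and 36 with the replicate block, 682 and 569 at an adjusted p below 0.1, and 181 and 140 with a log2 fold change of at least 1 required. They ran from 39 to 604 higher and from 42 to 385 lower when single libraries were left out. Related genes called higher and lower were 3 and 2 by DESeq2, 2 and 2 with no filter, 3 and 2 at an adjusted p below 0.1, and 1 and 1 with library totals only. They ran from 0 to 3 and from 0 to 1 when single libraries were left out, with 0 higher without any one Control library and 3 higher without FAD5x replicate 3. The log2 fold change of Ddah1, 0.08 with all libraries, ran from -0.15 to 0.25 when single libraries were left out, being -0.15 without FAD5x replicate 1 and -0.02 without Control replicate 1, and was -0.24 without both. That of Nos1, -0.12 with all libraries, ran from -0.27 to 0.14, being 0.14 without FAD5x replicate 2. The cause of these moves was not tested.

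Replicates of the same number did not deviate together (correlations -0.04, -0.09 and -0.31). This check covered only libraries of the same replicate number and cannot show whether samples share a batch in another way. With the replicate block 36 genes were called higher and 36 lower, Adi1 and Ass1 stayed called, and Gatm did not (adjusted p = 0.0672). Scaling moved the median of all genes by less than 0.1 on the log2 scale. Low counts limit Nos2 and the copies of Odc1.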
